A study of Mus musculus with 4 samples.

Results

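The response to tumour necrosis factor (TNF) was compared between mouse embryonic fibroblasts (MEFs) labelled wild type (Mll1+/+) and Mll1-/-. For each gene, the log2 TNF ratio in wild-type cells was subtracted from the log2 TNF ratio in Mll1-/- cells, and the result is called the difference of responses. A ratio compares log2(RPKM + 0.5) with and without TNF, where RPKM is the read count scaled to transcript length and library total. The comparison holds 12177 of the 23005 genes and unnamed transcripts in the deposited table, those that reach 3 RPKM in any of the 4 libraries. A gene symbol was found for 9576 of them, and 2601 have none. The groups were Mll1+/+ MEFs and Mll1-/- MEFs, each given control solution or TNFa at 10 ng/ml for 4 hr. The treatment protocol writes the dose in another unit than the design text. All cells grew in the same serum-containing medium. The labels name no strain, clone, passage or Mll1 allele.

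Cells of 3 independent treatments were pooled into 1 library for each group, so no spread between replicates exists and no p-value is given. Every value describes 4 libraries, and the 95% intervals quoted come from read counts and cover counting error only. Library totals, inferred from the deposited RPKM, were 27728647 reads (wild-type control), 27977248 (wild type with TNF), 20081869 (Mll1-/- control) and 19306506 (Mll1-/- with TNF). Kmt2a, the current symbol of Mll1, had 842, 971, 666 and 526 reads in that order (1.85, 2.11, 2.02 and 1.66 RPKM). This whole-transcript level did not separate the genotypes, and it cannot check a deletion of part of the gene, so the genotypes are used as labelled. All 7 measured fibroblast markers reached 3 RPKM in some library, with Vim at 2097 to 2418 RPKM, but Dcn, Col3a1 and Pdgfra did so in Mll1-/- alone. Dcn was listed at 0 in both wild-type libraries and at 9.16 and 15.2 RPKM in Mll1-/-. Col3a1 was at 0.53 and 0.30 RPKM (wild type) and 28.1 and 23.5 RPKM (Mll1-/-). Pdgfra was at 0.22 and 0.27 RPKM (wild type) and 3.20 and 3.86 RPKM (Mll1-/-). Summed neural markers (Nes, Tubb3 and Map2 above all) were 14.4 and 14.1 RPKM (wild type) and 104 and 91.9 RPKM (Mll1-/-). Summed epithelial markers, of which only Krt19 reached 3 RPKM, were 53.2 and 41.99 RPKM (wild type) and 24.98 and 21.6 RPKM (Mll1-/-). Macrophage markers (Cd14 above 3 RPKM) summed to 23.5 and 25.8 against 9.56 and 12.2 RPKM, and adipocyte markers (Pparg above 3 RPKM) to 18.3 and 14.9 against 11.3 and 9.33 RPKM. Muscle markers summed to 4.97 RPKM and endothelial markers to 0.897 RPKM at most. The part of these marker differences in the results was not tested.

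TNF binds its receptors on fibroblasts and activates the IkB kinase, which leads to the destruction of IkB proteins and lets NF-kB enter the nucleus. NF-kB then raises transcription of chemokines, adhesion molecules and defence proteins, and also of its own inhibitors, such as IkB alpha and A20, which limit the response. Mll1 is a histone methyltransferase that places methyl groups on lysine 4 of histone H3, a mark of active promoters.

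For most genes the difference was small. The middle 95% of the differences lay between -0.54 and 0.76, with a median of 0.04. The response was lower by 1 or more in Mll1-/- for 30 members (0.246% of 12177) and higher by 1 or more for 77 (0.632%). Among members with a symbol these were 15 (0.157% of 9576) and 49 (0.512%). Counting intervals left out 0 for 26 of the 30 and for 70 of the 77. The same reads picked these members, so the intervals give them no separate support. Of the 15 lower members with a symbol, 5 are small RNAs, and the 9 that the naming rule takes are Ccl20, Neurl3, Vcam1, Lcn2, Cxcl1, Cxcl5, Nfkbie, Senp7 and Samd9l. Both sets were mostly short transcripts. Under 1000 bases were 23 of the 30 lower members (median length 852.5 bases) and 68 of the 77 higher members (median 315), against a median of 2321 for all members. The split depends on scaling and length. When the libraries were scaled without the 20 most abundant genes, which moves the median difference by -0.18, 62 were lower and 36 higher, so that 36.7% rather than 72.0% of those past 1 were higher. With the length trend removed, 97 were lower and 24 higher, and 29 of the 30 but only 23 of the 77 remained past 1. Removing that trend lowers the values of short transcripts, which make up most of both sets. This contrast between the sets therefore largely follows from the correction and does not show that the lower set is firmer. Just inside the limit stood Samd9l at -1.06, and just outside it Prl2c1 at -0.92 and Pak3 at -0.90, while 41 named members lay between 0.9 and 1.

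**Figure D1:**
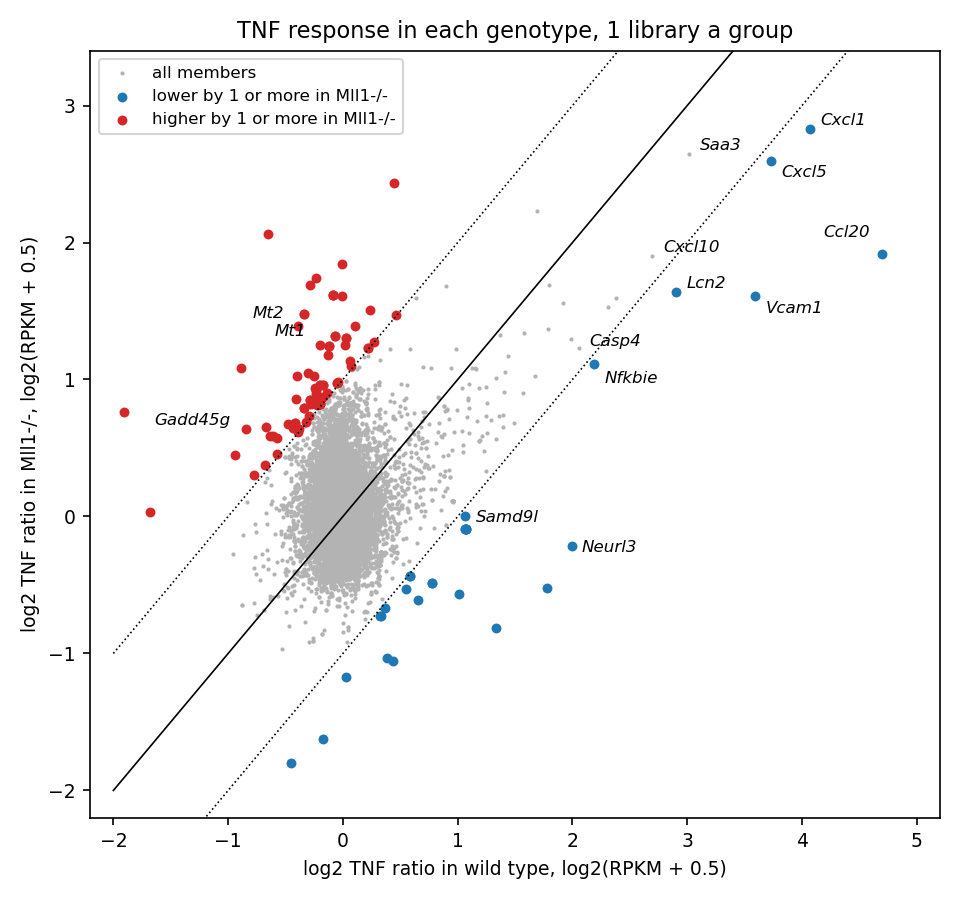
Log2 TNF ratio in wild type (x axis) against that in Mll1-/- (y axis) for the 12177 members, with equality drawn as a solid line and differences of 1 as dotted lines. Blue points (30) lie lower by 1 or more in Mll1-/- and red points (77) higher, with Ccl20 at 4.70 in wild type and 1.92 in Mll1-/-.

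The genes that responded to TNF were then described by starting level, ratio and gain, where the gain is the RPKM with TNF minus the RPKM without. A log2 TNF ratio of 1 or more was found for 55 named members in wild type and for 55 in Mll1-/- (0.574% of 9576 each), and 85 passed in at least 1 genotype. Leaving out 20 small nuclear, nucleolar and similar RNAs, whose RPKM rest on few reads, 65 responders remained. Of these, 48 had the smaller ratio in Mll1-/- and 17 the larger, with a median difference of -0.36 (0.02 over all named members). The choice of responders fixed the direction for 24 that passed in wild type alone (all smaller) and 17 in Mll1-/- alone (all larger). The gain gave another answer, being smaller in Mll1-/- for 30 and larger for 35. Both measures were smaller for 28 genes, and for 20 the ratio was smaller but the gain larger. Over all 85 the corresponding numbers were 54 with the smaller ratio, 38 with the smaller gain and a median of -0.26.

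Ratio and gain are linked by the starting level. Control levels were compared after adding 0.5 RPKM to each. Among the 65, the Mll1-/- control level so taken was more than 1.5 times lower than in wild type for 24. It was within 1.5 times for 16 (called similar) and more than 1.5 times higher for 25. Without the added 0.5 RPKM some of the 16 lie outside 1.5 times, such as Cxcl10 (0.407 and 0.703 RPKM) and Bcl3 (1.04 and 1.76 RPKM). Where the start was similar, ratio and gain are nearly the same question, and 14 of 16 had the smaller ratio and 13 the smaller gain in Mll1-/- (median difference -0.58). Where the start was higher, 21 of 25 had the smaller ratio, yet 22 had the larger gain and only 1 ended at a lower level with TNF. Where the start was lower, 13 of 24 had the smaller ratio and all 13 necessarily had the smaller gain as well. The control libraries enter both the starting level and the difference, so the classes are not independent of it. Each class also holds genes past log2 1 in a single genotype, for which the direction of the ratio was fixed by the choice of responders. Over all named members the medians by class were 0.32 (lower start, 1632 genes), -0.01 (similar, 6700) and -0.15 (higher, 1244).

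The share of smaller ratios also depends on the genotype in which responders were chosen. Chosen in wild type, 48 of 48 without small RNAs had the smaller ratio in Mll1-/- (median -0.55). Chosen in Mll1-/-, 24 of 41 did (median -0.08), and over all 55, small RNAs included, the median was 0.39. The direction for a gene past log2 1 in a single genotype is fixed by that choice. For the 24 genes past log2 1 in both genotypes that choice does not fix the direction. Of them, 24 of 24 had the smaller ratio in Mll1-/- (median -0.53). The counting interval was below 0 for 18, over 0 for 5 and missing for 1. With a pseudocount of 0.1 or 1 RPKM, 23 or 21 had the smaller ratio. Of these 24, 12 had the smaller gain and 12 the larger. The set is not free of the filter. Ccl20, Il6 and Saa3 reached 3 RPKM only in wild type with TNF, which can favour a smaller ratio in Mll1-/-. Serpinb2, Gdpd5, Mmp13 and Pik3r5 reached it only in Mll1-/- libraries.

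**Figure D2:**
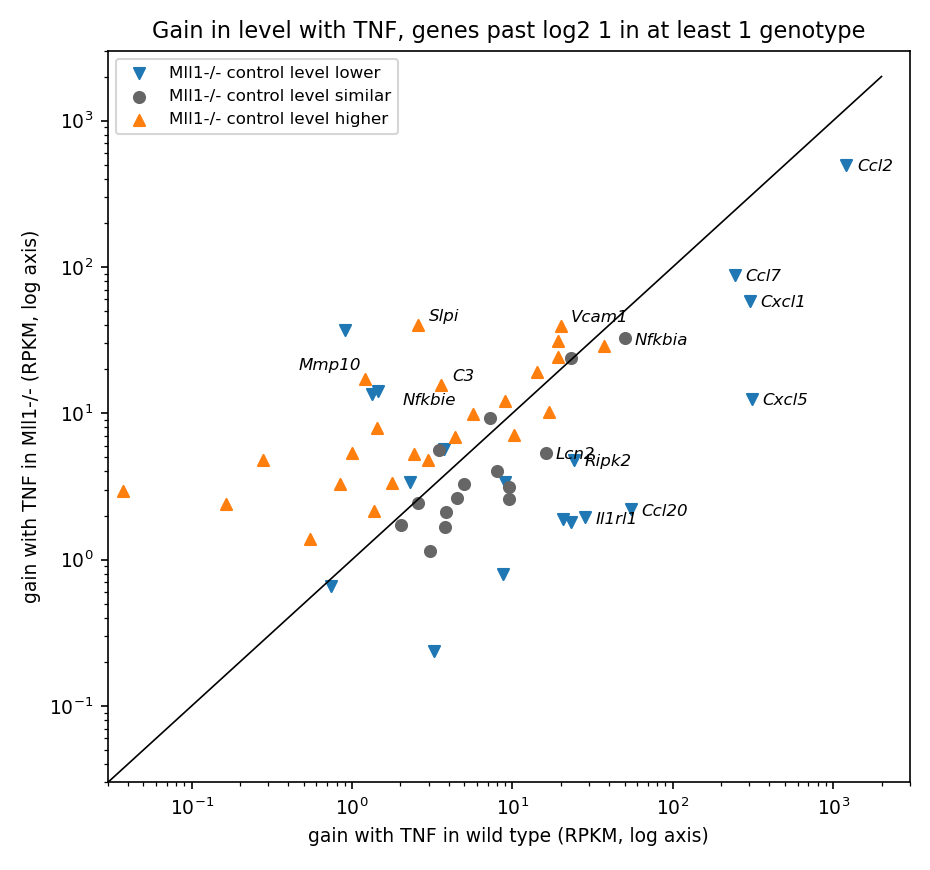
Gain in RPKM with TNF in wild type (x axis) and in Mll1-/- (y axis), both on log axes, for the 58 responders with a gain above 0 in both genotypes; the other 7 cannot be drawn. Symbols give the Mll1-/- starting level, and genes that started higher (triangles up) lie mostly above the line of equality, whereas Ccl20, Cxcl5 and Cxcl1 lie far below it.

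Neutrophil chemokines and Ccl20 differed most. Of 7 genes of that list with deposited values, 3 reached 3 RPKM in some library, Ccl20 only in wild type with TNF. For gene lists, measured genes are those that reached 3 RPKM in some library. All 3 were past log2 1 in both genotypes and lower by 1 or more in Mll1-/-. Ccl20, which draws lymphocytes and dendritic cells through Ccr6, was at 1.69 RPKM in the wild-type control, 56.3 with TNF, 0.292 in the Mll1-/- control and 2.49 with TNF. Its ratios were 33.3-fold and 8.53-fold, its gains 54.6 and 2.20 RPKM, and its difference -2.78. The Mll1-/- control value rests on 5 reads, and from reads without the pseudocount the difference was -1.96 (interval -3.38 to -0.55). Cxcl1, a ligand of the neutrophil receptor Cxcr2, went from 18.6 to 320 RPKM (wild type) and from 9.14 to 68.0 RPKM (Mll1-/-), a difference of -1.24 (from reads -1.21, interval -1.48 to -0.95). Cxcl5, another Cxcr2 ligand, started at 24.99 RPKM (wild type) and 1.99 RPKM (Mll1-/-) and reached 338 and 14.6, a difference of -1.13 (from reads -0.88, interval -1.26 to -0.50). Of these genes Cxcl5 stood lower in Mll1-/- with TNF than in wild type without it, whereas Ccl20 and Cxcl1 with TNF stood above their wild-type control levels in both genotypes.

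The promoters of Ccl20 and Cxcl1 are shown because they have the lowest differences among the chemokines, together with that of Neurl3, a gene that responded in wild type alone. They run from 250 bases before to 50 after the start and come from RefSeq on GRCm38.p6, 5′ to 3′ on the gene's strand. Capitals mark the NF-kB binding motif known as the kB decamer, searched on both strands.
Ccl20, chr1:83116516-83116815, plus strand: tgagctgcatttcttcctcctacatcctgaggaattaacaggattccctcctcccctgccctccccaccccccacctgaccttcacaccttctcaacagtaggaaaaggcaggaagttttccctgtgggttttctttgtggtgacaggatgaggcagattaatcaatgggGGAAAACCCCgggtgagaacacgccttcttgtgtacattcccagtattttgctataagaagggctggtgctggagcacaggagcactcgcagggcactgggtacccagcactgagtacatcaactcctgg
Cxcl1, chr5:90890995-90891294, plus strand: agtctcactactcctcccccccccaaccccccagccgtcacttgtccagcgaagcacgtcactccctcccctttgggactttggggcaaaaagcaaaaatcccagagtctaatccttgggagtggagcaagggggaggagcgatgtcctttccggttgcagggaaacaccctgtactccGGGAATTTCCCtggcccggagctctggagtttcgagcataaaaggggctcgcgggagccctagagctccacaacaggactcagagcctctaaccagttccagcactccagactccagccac
Neurl3, chr1:36273376-36273675, minus strand: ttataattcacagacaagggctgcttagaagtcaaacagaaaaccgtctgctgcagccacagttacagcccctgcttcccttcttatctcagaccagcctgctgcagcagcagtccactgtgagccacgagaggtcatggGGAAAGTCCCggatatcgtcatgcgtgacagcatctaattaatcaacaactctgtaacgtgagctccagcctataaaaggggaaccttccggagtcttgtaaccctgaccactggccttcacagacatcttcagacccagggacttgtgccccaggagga
The Cxcl1 promoter holds overlapping matches on both strands. A kB decamer was found in 8.46% of 32851 promoters of this length and in 11.95% of the 7689 members with a symbol and a promoter in the table. Of the 24 genes past log2 1 in both genotypes, 19 have a promoter in the table and 11 of these hold the motif (57.9%). A match is a stretch of letters and says nothing of binding in these cells.

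The other chemokines differed less. Of 6 measured, 3 were past log2 1 in each genotype, and the median difference was -0.17. Ccl2, the main monocyte attractant, was at 434 RPKM in the wild-type control, 1643 with TNF, 255 in the Mll1-/- control and 752 with TNF. The difference was -0.36 (from reads, interval -0.42 to -0.30), and the gain of 1210 RPKM against 497 was the widest gap among responders. Ccl7, a related monocyte attractant, went from 98.8 to 343 RPKM (wild type) and from 55.4 to 144 RPKM (Mll1-/-) (difference -0.42). Cxcl10, which attracts T cells, rested on 12 and 15 control reads and stood at 0.407, 5.38, 0.703 and 4.00 RPKM (difference -0.79). Ccl9, a macrophage chemokine, went from 9.48 to 17.3 and from 9.34 to 17.5 RPKM (difference 0.04), and Cxcl12, a homeostatic chemokine, was at 90.8 and 81.1 RPKM in Mll1-/- but under 1 RPKM in wild type (difference 0.16). The sign for Ccl9 and Cxcl12 turns when scaled without the 20 most abundant genes.

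**Figure D3:**
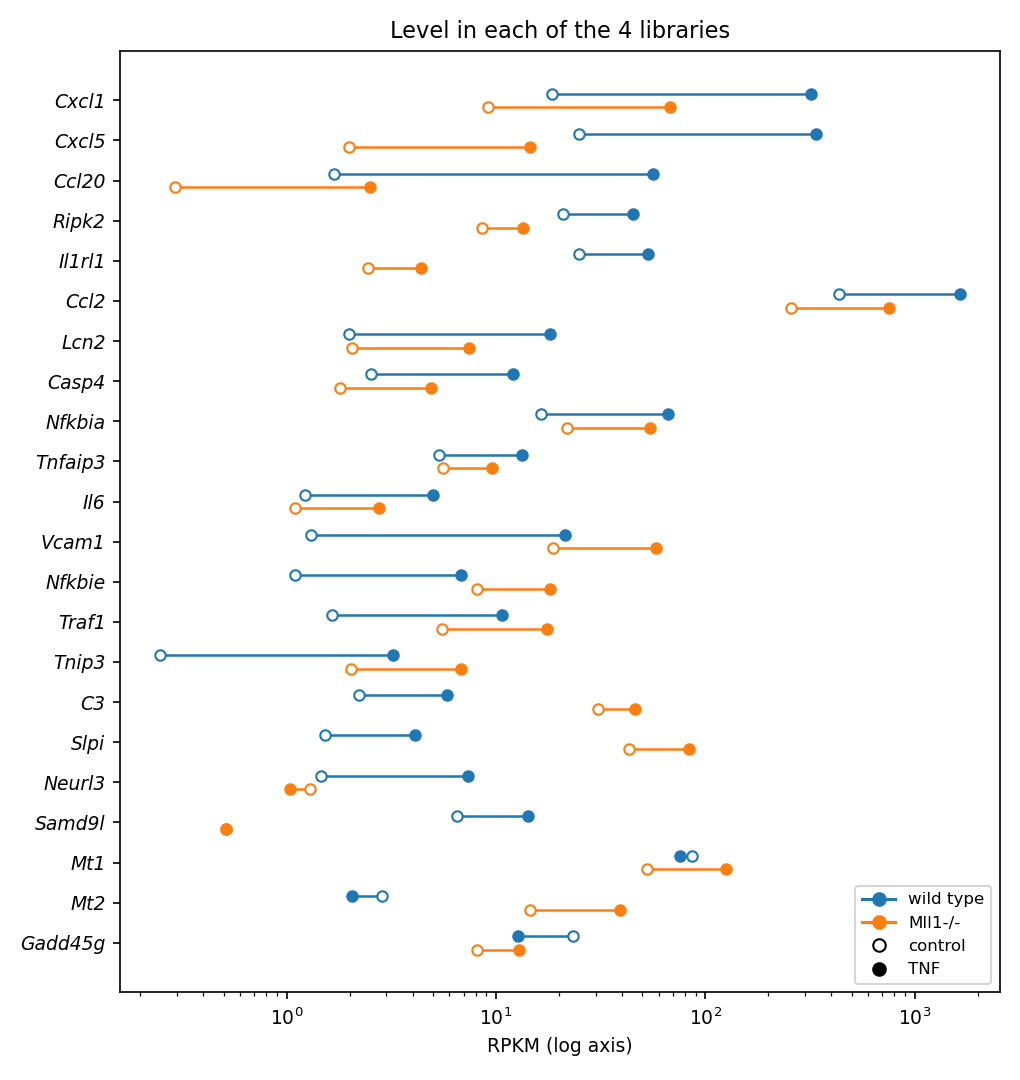
RPKM (log axis) in the 4 libraries for selected responders, grouped by a lower, similar or higher starting level in Mll1-/-. Neurl3, Samd9l and genes with a larger response in Mll1-/- follow. Open circles are control, filled circles TNF, and lines join the libraries of a genotype. The starting level of Vcam1 was 1.31 RPKM (wild type) and 18.8 RPKM (Mll1-/-), that of Cxcl5 24.99 and 1.99.

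Subunits of NF-kB and their IkB inhibitors had smaller ratios in Mll1-/- for 8 of 9 measured genes, with a median of -0.43. As a scale for this and the later list counts, the median difference over all named members was 0.02. The lists were chosen with earlier results of these data known, so their counts are descriptive. In wild type 6 were past log2 1 and in Mll1-/- 3, and 1 of the 9 was lower by 1 or more. Nfkbia encodes IkB alpha, the inhibitor that NF-kB itself induces. Its level was 16.4 and 66.4 RPKM (wild type) and 21.8 and 54.3 RPKM (Mll1-/-), so that it began slightly higher and ended lower (difference -0.69, from reads -0.70, interval -0.88 to -0.53). Nfkbie, which encodes IkB epsilon, went from 1.10 to 6.82 RPKM (wild type) and from 8.08 to 18.0 RPKM (Mll1-/-). Its control level in Mll1-/- exceeded the wild-type level with TNF, and its difference was -1.08 although its gain was 9.95 RPKM against 5.72. Bcl3, an atypical IkB protein in the nucleus, gained 2.56 RPKM in wild type and 2.44 in Mll1-/- (difference -0.36, interval from reads over 0). Of the subunits, Relb and Nfkb2 stood at -0.66 and -0.58 and Rela at -0.04. Nfkbib, the gene for IkB beta, had the opposite sign at 0.32.

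Regulators around A20, the Tnip proteins, the Traf adaptors and the cIAP ubiquitin ligases had smaller ratios in Mll1-/- for 11 of 14 measured genes, with a median of -0.30 and 0 past 1 in either direction. Traf1, a receptor adaptor, went from 1.64 to 10.7 RPKM (wild type) and from 5.50 to 17.6 RPKM (Mll1-/-) (difference -0.79, from reads -1.02, interval -1.38 to -0.66), with the larger gain in Mll1-/-. Tnip3, which binds A20, went from 0.249 to 3.21 and from 2.02 to 6.79 RPKM (difference -0.78, from reads -1.94). Tnfaip3, the gene for A20, started alike at 5.32 and 5.56 RPKM and reached 13.3 and 9.57, a smaller response on both scales (difference -0.52, from reads -0.54, interval -0.75 to -0.33). Tnip1 differed little, from 10.8 to 30.0 and from 18.9 to 43.3 RPKM (-0.26). The cIAP genes were the highest of the list, Birc3 at 0.14 and Birc2 at 0.18. Ikbke, which encodes an IkB kinase relative, was past log2 1 in both genotypes (1.71 to 6.09 and 3.98 to 10.9 RPKM) with a difference of -0.23.

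Among adhesion molecules and immune receptors the extremes of the whole list lay far apart, although its median was -0.26. In each genotype 3 of the 14 were past log2 1. Vcam1, the ligand by which leukocyte integrins hold on to inflamed cells, was at 1.31 RPKM in the wild-type control, 21.3 with TNF, 18.8 in the Mll1-/- control and 58.3 with TNF. Its Mll1-/- control level was close to the wild-type level with TNF. The ratio was 16.3-fold in wild type and 3.10-fold in Mll1-/- (difference -1.98, from reads -2.39, interval -2.67 to -2.12), while the gain was 19.96 RPKM in wild type and 39.5 in Mll1-/-. Fas, the death receptor gene, differed little: it went from 2.45 to 9.72 and from 3.69 to 13.001 RPKM (-0.10, interval from reads over 0). Il1r1, the interleukin-1 receptor gene, stood at 1.79, 2.85, 19.8 and 17.7 RPKM, a difference of -0.71 without a response past log2 1 in either genotype. Tlr2, the bacterial lipoprotein receptor gene, was at the other end (1.29), with 0 and 3 reads in wild type and 76 and 237 in Mll1-/-, so no wild-type ratio can be given for it without the pseudocount.

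Of 22 secreted defence, acute-phase and enzyme genes with deposited values, 12 reached 3 RPKM in some library. All 12 had a difference below 0, with a median of -0.29, and 1 was lower by 1 or more. The count was 10 and 11 with a pseudocount of 0.1 and 1 RPKM, and 11 with the length trend removed. Lcn2, whose product withholds iron from bacteria, started alike at 1.99 and 2.04 RPKM and reached 18.1 (wild type) and 7.41 (Mll1-/-) (difference -1.26, from reads -1.33, interval -2.02 to -0.63). C3, the central complement gene, was at 2.23 and 5.83 RPKM (wild type) and 30.7 and 46.3 RPKM (Mll1-/-). Its ratio was smaller (-0.63) and its gain larger in Mll1-/-, 15.6 against 3.61 RPKM. Saa3, an acute-phase apolipoprotein gene, had 2 and 69 reads in wild type and 0 and 27 in Mll1-/-, and its value of -0.37 turned to 0.44 with a pseudocount of 0.1 RPKM. Serpinb2, a plasminogen activator inhibitor gene, was past log2 1 in both genotypes with 12 control reads in wild type (-0.04). Slpi, a protease inhibitor gene outside the list, started at 1.53 RPKM (wild type) and 43.3 RPKM (Mll1-/-) and gained 2.59 and 39.98 RPKM (difference -0.25).

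On the log2(RPKM + 0.5) scale, cytokines and matrix metalloproteinases showed no common direction. Of 11 cytokine and growth factor genes 5 were below 0 and 6 above, with a median of 0.15 that was 0.01 when scaled without the 20 most abundant genes and -0.02 with the length trend removed. Il6, the acute-phase cytokine, went from 1.23 to 4.998 and from 1.10 to 2.76 RPKM (-0.64, interval from reads -1.56 to 0.16), and Areg, an EGF receptor ligand, from 1.47 to 1.64 and from 7.72 to 13.95 RPKM (0.70). Il33 (-0.33) was the second lowest and Tnfsf9 (0.63) the second highest. Of 11 metalloproteinase and inhibitor genes 4 were below 0 and 7 above, with a median of 0.05. When scaled without the 20 most abundant genes, 8 were below 0 and 3 above, with a median of -0.14. In wild type 2 were past log2 1 and in Mll1-/- 1. Mmp10, a stromelysin, went from 0.231 to 1.43 RPKM (wild type) and from 19.2 to 36.4 RPKM (Mll1-/-) (difference -0.50, gains 1.203 and 17.2 RPKM). From reads its difference was -1.71 (interval -2.64 to -0.78). Mmp13, a collagenase, went from 0.135 to 1.14 and from 3.09 to 8.48 RPKM (-0.04, from reads -1.62, interval -2.60 to -0.64). Mmp3 stood at 0.14, but at -2.31 from reads (interval -4.43 to -0.19), with 2 control reads in wild type. The wild-type control levels of Mmp10, Mmp13 and Mmp3 lay below the pseudocount of 0.5 RPKM. Casp4, an inflammatory caspase gene, fits neither list and went from 2.52 to 12.05 and from 1.81 to 4.92 RPKM (-0.83, interval from reads -1.37 to -0.26).

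Neurl3 and Samd9l are 2 of the 24 responders without small RNAs that were past log2 1 in wild type alone. Their log2 TNF ratios in Mll1-/- were -0.22 and 0.0017. Neurl3, which encodes a ubiquitin ligase, was at 1.47 RPKM in the wild-type control, 7.32 with TNF, 1.29 in the Mll1-/- control and 1.04 with TNF, or 105, 529, 67 and 52 reads. The 3 libraries other than wild type with TNF were alike, and the difference was -2.21 (from reads -2.63, interval -3.23 to -2.03). Samd9l, an interferon-stimulated antiviral gene, stood at 6.55 and 14.3 RPKM in wild type but at 0.512 and 0.514 in Mll1-/-, where it was barely expressed in either library (-1.06, and -0.91 with the length trend removed). Of 26 interferon-stimulated genes with deposited values, 7 reached 3 RPKM in some library, with a median difference of -0.21. Samd9l was the 1 gene past log2 1 among these 7. Senp7, a SUMO protease gene, stayed within log2 1 in both genotypes. It was at 2.18, 3.42, 3.68 and 2.39 RPKM, with log2 TNF ratios of 0.55 and -0.53 (difference -1.08, from reads -1.27, interval -1.92 to -0.63).

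Mt1 and Mt2, the metallothionein genes that reached 3 RPKM, were among the named genes with a larger response in Mll1-/-. They encode small proteins that bind zinc and copper and are induced by metals and stress. Mt1 was at 86.4 RPKM in the wild-type control, 75.3 with TNF, 52.4 in the Mll1-/- control and 126 with TNF. The difference was 1.45 (from reads 1.46, interval 1.283 to 1.63) and 1.13 with the length trend removed. Mt2 was at 2.85, 2.06, 14.6 and 39.0 RPKM, a difference of 1.78 (from reads 1.89, interval 1.18 to 2.60) and 1.45 with the length trend removed. In both genes the Mll1-/- library with TNF was the highest of the 4. The zinc transporter genes measured did not follow: Slc39a6 stood at -0.14, Slc39a10 at -0.03 and Slc30a1 at 0.0019. The promoters of this pair are printed because the genes move together. Capitals mark the core of the metal response element, TGCACNC or TGCGCNC, searched on both strands, from RefSeq on GRCm38.p6.
Mt1, chr8:94178839-94179138, plus strand: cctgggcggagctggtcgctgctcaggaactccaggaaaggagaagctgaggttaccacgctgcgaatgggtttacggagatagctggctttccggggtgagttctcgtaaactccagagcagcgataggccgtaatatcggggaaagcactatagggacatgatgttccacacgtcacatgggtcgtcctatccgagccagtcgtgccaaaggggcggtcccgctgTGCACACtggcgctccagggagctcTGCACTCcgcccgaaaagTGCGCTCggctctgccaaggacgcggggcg
Mt2, chr8:94172368-94172667, plus strand: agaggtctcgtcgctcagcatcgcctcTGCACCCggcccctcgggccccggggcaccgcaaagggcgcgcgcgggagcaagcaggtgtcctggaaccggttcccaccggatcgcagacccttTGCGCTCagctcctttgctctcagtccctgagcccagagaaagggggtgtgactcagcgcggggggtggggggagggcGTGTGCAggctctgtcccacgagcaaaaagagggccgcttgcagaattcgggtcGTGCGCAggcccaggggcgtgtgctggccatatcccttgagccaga
The Mt1 promoter holds 3 matches and the Mt2 promoter 4. The core is short and common, being present in 25.7% of 32851 promoters of this length and in 36.3% of 9813 promoters of members.

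Other named genes also had larger responses in Mll1-/-. Snhg9, a host gene of small nucleolar RNA, had the highest value of the genes named by the rule (1.996) but only 1 read in the Mll1-/- control. Gadd45g, a growth arrest gene, was at 23.3 and 12.8 RPKM (wild type) and 8.11 and 12.9 RPKM (Mll1-/-), so that both TNF libraries ended alike (difference 1.48, from reads 1.54, interval 1.21 to 1.86, and 1.24 with the length trend removed). Dusp1, a phosphatase gene that limits MAP kinase signalling, started alike and ended apart, from 25.1 to 15.9 RPKM (wild type) and from 24.8 to 31.5 RPKM (Mll1-/-). Its transcript has 1952 bases and its libraries 867 to 1360 reads, and its difference of 0.98 was 0.85 with the length trend removed. Pnkd, a mitochondrial and membrane protein gene, was at 8.37, 6.24, 3.96 and 8.55 RPKM (1.42), and Tmem160 at 10.3, 6.72, 5.28 and 8.08 RPKM (1.15). The histone genes H4c18, H4c3, H4c12, H4c1, H4c11, H4c2 and H4c8 had differences between 1.13 and 1.36 with 27 to 32 reads in the Mll1-/- control. They encode the same protein and their reads may be shared, so they do not count as separate cases.

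**Figure D4:**
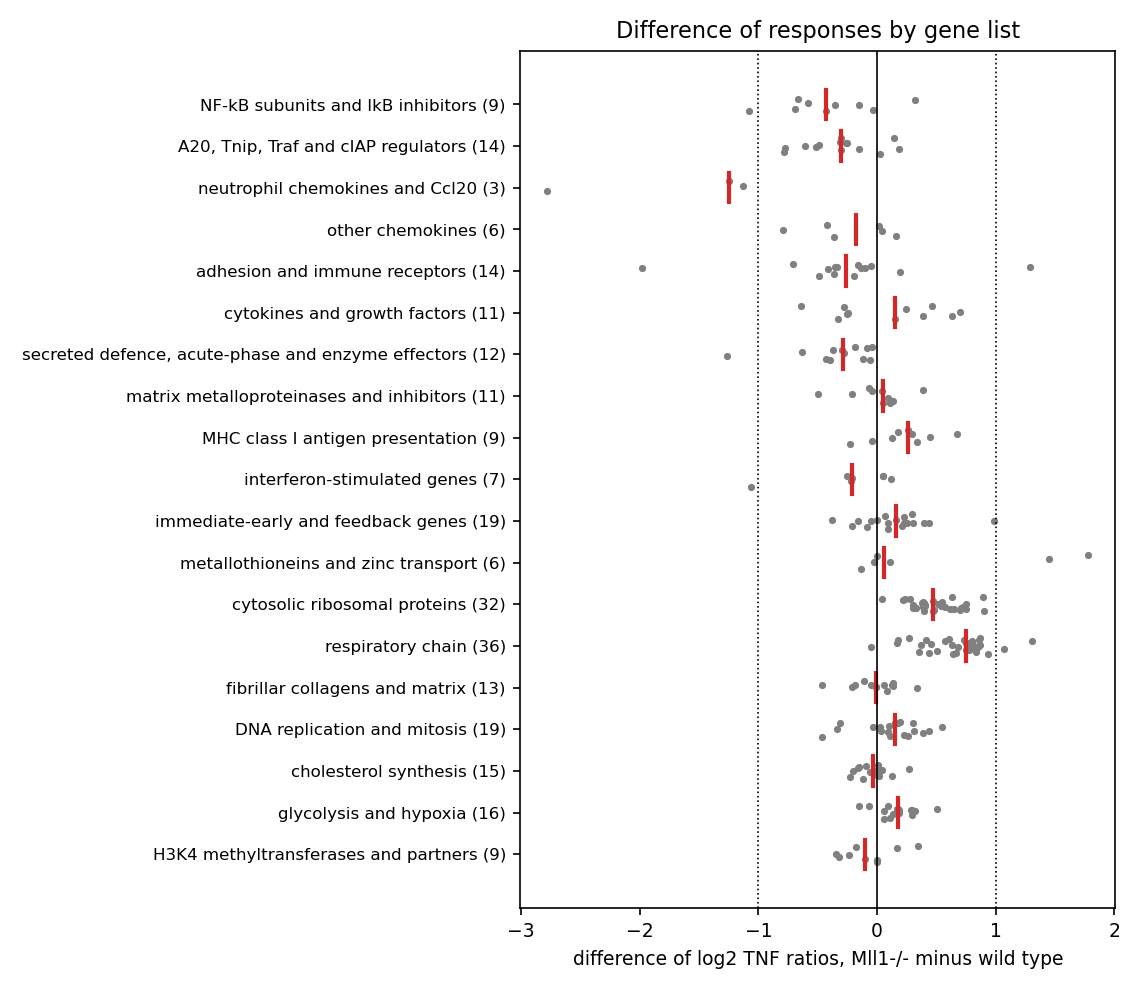
Difference of responses (log2, Mll1-/- minus wild type) for the members of 19 gene lists, with the number measured in brackets, a point for each gene, a red bar at the median and dotted lines at differences of 1. Neutrophil chemokines with Ccl20 lie lowest (median -1.24) and respiratory chain genes highest (median 0.75).

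Respiratory chain and ribosomal protein genes were shifted as whole lists, within the limit of 1 for nearly every gene. Of 36 respiratory chain genes 35 lay above 0, with median ratios of -0.08 in wild type and 0.64 in Mll1-/- and a median difference of 0.75. Uqcr11, a subunit of complex III, was at 132 and 120 RPKM (wild type) and 44.7 and 102 RPKM (Mll1-/-) (1.31), and Cox17, a copper chaperone of complex IV, at 31.2, 32.6, 11.3 and 25.4 RPKM (1.07). These 2 were the only members of the list past 1, and Sdha, with a transcript of 2859 bases, was the 1 below 0 (-0.05). Of 32 ribosomal protein genes 32 lay above 0 (median 0.47), from Rpl4 at 0.04 to Rps29 at 0.90, and 0 passed 1. In both lists the Mll1-/- control library was the low one, with median starting differences of -0.86 and -0.78. Their transcripts are short, with median lengths of 532.5 and 747.5 bases. With the length trend removed the medians were 0.42 and 0.20, and when scaled without the 20 most abundant genes 0.57 and 0.29.

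Length moved with the response across all members, and far more in the Mll1-/- libraries than in wild type. From the shortest 10% of the members (median 435 bases) to the longest (7043 bases) the Mll1-/- libraries moved from a median ratio of 0.34 to -0.20, and wild type from -0.01 to 0.03. The difference of responses accordingly went from 0.36 to -0.25, and 54 of the 77 members with higher values were in the shortest 10%. With 1 library a group, length-dependent handling of a library and a biological shift of short transcripts cannot be told apart. Ccl20, Cxcl1 and Lcn2 are short transcripts too (852, 964 and 853 bases). At such lengths the trend lies above 0, so removing it lowers every value whatever the gene. Their values with the trend removed, -3.05, -1.504 and -1.54, were therefore bound to be lower and give them no separate support.

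**Figure D5:**
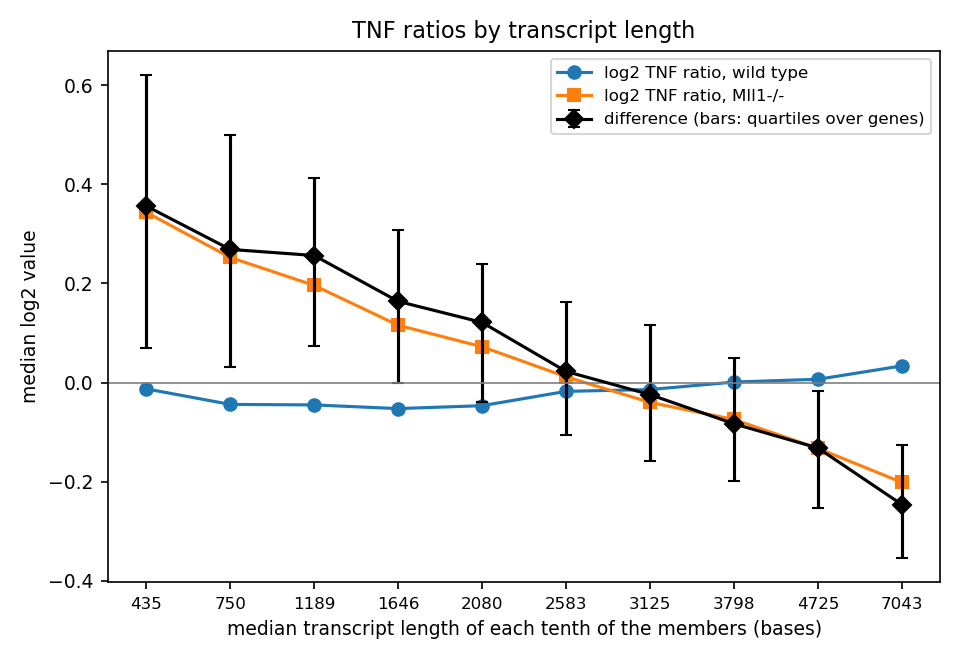
Median log2 TNF ratio in wild type (circles) and in Mll1-/- (squares), and median difference of responses (diamonds, bars are quartiles over genes), for the members in 10 classes of transcript length in bases. The Mll1-/- ratio goes from 0.34 to -0.20, while wild type stays between -0.05 and 0.03.

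The remaining lists had medians near 0 and 0 members past a difference of 1. Of 9 MHC class I genes, which present peptides to T cells, 7 lay above 0 (median 0.26, but 0.01 with the length trend removed), with B2m, the light chain, from 197 to 241 and from 218 to 364 RPKM (0.45) and H2-T23 at 0.68. Of 19 immediate-early and feedback genes 13 lay above 0 (median 0.16, -0.03 when scaled without the 20 most abundant genes). Ier3, a survival gene of that list, was past log2 1 in both genotypes and nearly equal (-0.08). Medians were 0.15 for 19 DNA replication and mitosis genes, with Cdk1 at 0.54 and Mki67 at -0.46, and 0.18 for 16 glycolysis and hypoxia genes, with Gapdh at 0.51. Medians of 13 fibrillar collagen and matrix genes (-0.00), 15 cholesterol synthesis genes (-0.03) and 9 H3K4 methyltransferases and partners (-0.10) lay at or just below 0. Within the last, Rbbp5 (-0.34) and Dpy30 (0.35), both core subunits of these enzymes, stood at the ends.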

How the data were processed

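RNA from 4 MEF libraries was sequenced, and the authors deposited RPKM values for 27344 transcript entries, per the file headers. The submitters' processing notes name TopHat, without a version. Build, annotation and counting program: not given in the sources used here. No strand is stated, so antisense partners cannot be separated. Whole reads were recovered from the deposited RPKM in 27340 entries (99.99%, within 0.02 reads). Reads over all entries sum to 1.663 to 1.763 times these totals. Of 20658 recovered lengths, 79.0% lie within 10% of GENCODE M21, in 1224 cases after scaling reads up by a whole factor. The inferred totals and these factors were themselves set by GENCODE lengths, so this closeness is partly built in.

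Entries were named through RefSeq (20849) or GENCODE (102), 6393 were left unnamed, and the entry with the highest mean RPKM stands for a symbol. Analyses used log2(RPKM + 0.5), which understates changes of low genes, in Python 3.11.15 with numpy 2.4.6 and pandas 2.3.3, and were tested on simulated data. Intervals are 95% normal intervals of the log2 ratio of read ratios. The length trend is the median over 40 bins of length. Members and gene lists were chosen with earlier results of these data known.

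Genes are named by rule, leaving out predicted genes and small RNAs: up to 15 lowest and 15 highest differences of 1 or more, the 5 widest gaps in gain each way, the 2 lowest and 2 highest of each of 19 lists, and genes past log2 1 in both genotypes. Tnfaip3, Relb, Nfkb2, Prl2c1 and Pak3 were added after their values were seen. Alternatives changed the pseudocount, filter, scaling, length correction and choice of entries.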

Additional observations from a re-analysis of the deposited data

Results flagged for a closer look

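Of the 24 named genes with the lowest and highest differences, 15 went in opposite directions with TNF in the genotypes. These opposite directions rest on 1 library a group and were not tested. In some the move in 1 genotype was small for its reads, as for Neurl3 in Mll1-/- (67 to 52 reads) and Mt2 in wild type (44 to 32). For Gadd45g in wild type it was larger (698 to 386 reads). Neurl3 (difference -2.21) and Senp7 (-1.08) were higher with TNF in wild type and lower in Mll1-/-. The reverse held for Mt2 (1.78), Gadd45g (1.48), Mt1 (1.45), Pnkd (1.42), Uqcr11 (1.31) and Tmem160 (1.15). It also held for the histone H4 genes H4c18 (1.36), H4c3 (1.275), H4c12 (1.18), H4c1 (1.16), H4c11 (1.15), H4c2 (1.15) and H4c8 (1.13), whose copies may share reads.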

How the results depend on the processing

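The count of members with a higher response in Mll1-/- (77) was 117 with a pseudocount of 0.1 RPKM, 34 with a filter of 10 RPKM, 132 with no filter, 36 when scaled without the 20 most abundant genes and 24 with the length trend removed. The count with a lower response (30) was 61 with a filter of 1 RPKM, 81 with no filter, 62 when scaled without the 20 most abundant genes and 97 with the length trend removed. Among named genes without small RNAs, an alternative added after seeing the data, 36 were higher and 10 lower. The median difference over responders (-0.26) was -0.45 with a filter of 10 RPKM, where 34 had the smaller ratio and 21 the smaller gain. It was -0.46 when scaled without the 20 most abundant genes and -0.48 with the length trend removed. With responders chosen in wild type it was -0.52, and with responders chosen in Mll1-/- it turned to 0.39, both added after seeing the data. The cause of these shifts was not tested. Of 25 named genes past 1, 19 were still past it when scaled without the 20 most abundant genes, 14 with the length trend removed, and 25 under median-ratio or upper-quartile scaling. No paired analysis was possible because each group is 1 library, and for the same reason no library could be left out. A control value of few reads, as for Ccl20, Snhg9, Saa3 and Tlr2, limits what its ratio can show.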

Other observations

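Several multicopy genes are also among the responders and were picked out after their values were seen. The placental prolactin-family genes Prl2c1, Prl2c2, Prl2c3 and Prl2c5 were past log2 1 in wild type and not in Mll1-/-, with differences between -0.92 and -0.63. Prl2c2 went from 13.7 to 36.9 RPKM (wild type) and from 2.65 to 4.46 RPKM (Mll1-/-). Lilrb4a and Lilr4b, which encode related leukocyte receptors, had 0 control reads in wild type and differences of 0.96 and 0.81. The reads of such families may be shared between copies, so these values are uncertain.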
